A study of Mus musculus with 11 samples.

Results

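The miR-106b-25 cluster is a set of 3 miRNA hairpins, miR-106b, miR-93 and miR-25, inside an intron of Mcm7, which encodes a subunit of the helicase that opens DNA for replication. Both arms of each hairpin were taken by name, which gave 6 mature miRNAs of 1966 listed, and all 6 were among the 730 that passed the low-count filter. They were followed in 11 libraries of small RNA from embryonic stem cells of the mouse that differ in DGCR8, a protein that binds RNA and works with the nuclease Drosha.

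Drosha and DGCR8 form the microprocessor, which cuts miRNA hairpins out of primary transcripts, and Dicer then cuts each hairpin into a 5p and a 3p arm. One arm is usually kept as the guide that pairs with messenger RNAs through its seed, the bases 2 to 8. The cluster is a relative of the miR-17-92 and miR-106a-363 clusters, and its arms are known as repressors of the cell cycle inhibitor p21 (miR-106b-5p and miR-93-5p) and of the pro-apoptotic protein Bim (miR-25-3p). miR-93 and miR-106b are also known for aiding the reprogramming of other cells toward a stem cell state.

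The groups were as follows. KO cells, labelled DGCR8 -/- and not transfected, gave 3 libraries, all of clone 261. Wild-type DGCR8 cells (labelled DGCR8 wt/wt) carried pSB ET iE-FlagDGCR8-wt and gave induced libraries of clones 10, 12 and 16. Cells labelled DGCR8 E518K/E518K carried pSB ET iE-FlagDGCR8-E518K, with a change of a glutamate of DGCR8 seen in Wilms tumours, and gave induced libraries of clones 8, 13 and 15. Both vectors had been introduced together with the transposase plasmid pCMV(CAT)-SB100X. Induction was 300 ng/mL doxycycline for 48 h, which the KO cells also received. Wild-type clone 10 and E518K clone 8 gave 1 further library each without doxycycline. All cells had the same strain entry and were grown without feeder cells in 2i medium with LIF. The spread between KO samples may be technical, since 1 clone was used. The amount of DGCR8 protein in each clone, with or without doxycycline, was not measured here. Whether cells with a vector also made DGCR8 apart from it was not tested. The cluster held 0.377% of the miRNA counts in untreated wild-type clone 10 and 1.96% in the same clone induced. Untreated wild type is therefore not taken as a normal baseline.

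The KO libraries were the shallowest, with 166676 to 208846 miRNA counts, followed by untreated E518K with 264507. Induced E518K libraries held 1050564 to 1797240, untreated wild type 1421247 and the induced wild-type libraries 3394216 to 6128734. Levels are CPM, counts relative to a library size set by trimmed-mean (TMM) scaling. Most counts were even numbers, as if each small RNA were entered 2 times, so a floor of 3 small RNAs is 6 counts. Of 20 stem cell marker arms (miR-290 and miR-302 families), 20 had counts in both induced groups and held 34.4% to 39.6% of the counts in wild type and 15.7% to 18.03% in E518K. In KO 12 of the 20 had counts and held 0.127% to 0.370%. In untreated wild type 19 held 32.01%, and in untreated E518K, where the cluster was also low, 13 held 1.43%. Of 12 markers of liver, muscle, nervous system, blood and mesenchyme, 8 had counts in KO, with 0.902% to 1.18% of its counts, 10 in induced wild type with 0.196% to 0.315% and 11 in induced E518K with 0.116% to 0.164%. The stem cell markers are themselves miRNAs, so a change in DGCR8 and a change of cell identity cannot be told apart by them. The part of all these markers in the results was not tested. Fewer cells with a miRNA and less of it per cell cannot be told apart in these bulk libraries.

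The 3 hairpins are shown because they lie in the same intron and yet differed in their response to E518K. That they come from 1 primary transcript is thought, and was not tested here. The hairpins lie in GRCm38.p6 on chromosome 5, minus strand, in intron 13 of the Mcm7 transcript with 15 exons. Mir106b is at chr5:138165737-138165818, Mir93 at chr5:138165523-138165610 and Mir25 at chr5:138165321-138165404. Capitals mark the 5p and the 3p arm in the RefSeq hairpin records, written 5′ to 3′.
Mir106b: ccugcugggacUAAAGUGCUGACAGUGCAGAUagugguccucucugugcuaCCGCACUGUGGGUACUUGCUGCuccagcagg
Mir93: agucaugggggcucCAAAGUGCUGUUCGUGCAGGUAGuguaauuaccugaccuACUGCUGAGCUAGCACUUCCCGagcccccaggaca
Mir25: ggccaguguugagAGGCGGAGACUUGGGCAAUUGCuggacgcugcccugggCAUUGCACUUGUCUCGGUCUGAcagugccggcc

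**Figure D1:**
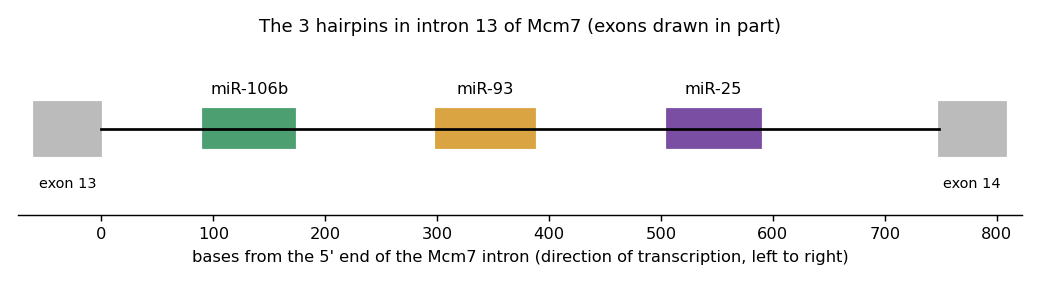
Map of the Mcm7 intron that holds the 3 hairpins, with bases from the 5′ end of the intron on the axis and coloured boxes for the hairpin records. The intron is 748 bases long, with miR-106b first and miR-25 last in the direction of transcription.

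Within the intron of 748 bases, Mir106b starts 91 bases, Mir93 299 bases and Mir25 505 bases from the 5′ end, with 126 and 118 bases between neighbours. The gene Mcm7 spans 138164583 to 138172422, and the annotation holds no gene on the opposite strand over the hairpins. A further annotated transcript, Mcm7-202, has an exon over Mir93 and Mir25 and none over Mir106b.

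The 3 hairpin records differ in their loops. The letters UGU, known as an apical motif that DGCR8 recognises, were searched on the transcript strand in the bases between the arms. They occur in Mir106b and in Mir93, and do not occur in this window of Mir25. Of 644 mouse hairpins with both arms known, 31.5% hold UGU between the arms. The median log2 change in E518K against wild type was 0.14 over the tested hairpins with UGU and 0.28 over the 247 without, as a description with no test. The folding energy by RNAfold was −46.3 kcal/mol for Mir93, −41.0 for Mir106b and −35.9 for Mir25, beside a median of −31.7 over the 644 hairpins.

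The mature arms fall into 2 seed families and 3 arms of their own. With the seed AAAGUGC in capitals, miR-106b-5p and miR-93-5p are set beside the 4 miRNAs with that seed in the related clusters.
miR-106b-5p: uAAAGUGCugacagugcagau
miR-93-5p: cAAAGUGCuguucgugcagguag
miR-17-5p: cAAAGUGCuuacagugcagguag
miR-20a-5p: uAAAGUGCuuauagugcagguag
miR-20b-5p: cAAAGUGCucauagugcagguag
miR-106a-5p: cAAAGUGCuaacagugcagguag

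With the seed AUUGCAC in capitals, miR-25-3p is set beside the 5 other miRNAs that carry it.
miR-25-3p: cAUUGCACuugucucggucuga
miR-92a-3p: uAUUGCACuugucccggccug
miR-92b-3p: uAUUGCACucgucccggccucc
miR-363-3p: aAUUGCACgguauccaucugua
miR-32-5p: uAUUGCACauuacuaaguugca
miR-367-3p: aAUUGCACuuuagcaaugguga

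The remaining arms miR-106b-3p, miR-93-3p and miR-25-5p share a seed with no other of the 1675 miRNAs that matched a RefSeq sequence by name. Counted from the 5′ end, miR-25-3p differs from miR-92a-3p at C1U, U14C and U18C over 21 bases, and miR-106b-5p from miR-93-5p at U1C, A11U, C12U, A13C and A20G. No miRNA had counts within 2% of a member over the libraries, the nearest being miR-425-5p, 13.4% away from miR-25-5p. A seventh carrier of the first seed, miR-6383, stood outside the lists and was not followed.

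The comparison of E518K with wild type asked what the mutant does to miRNA output. In it both arms of miR-25 were called lower, and the 4 arms of miR-106b and miR-93 did not pass the test. Of the 6 arms 2 were lower and 0 higher, where 35.3% of all tested miRNAs were lower and 28.2% higher. The count of lower arms is thus near the share over all miRNAs, and alone says nothing particular about the cluster. The median log2 change was 0.20 over the arms and −0.14 over the 730 tested miRNAs.

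mmu-miR-25-3p, the guide of its hairpin, was the most abundant arm of the cluster in induced wild type, at 24535 CPM in clone 10, 24398 in clone 12 and 21515 in clone 16. In E518K it was at 7661 CPM in clone 8, 5143 in clone 13 and 6001 in clone 15. The groups stood well apart, since the highest E518K clone was below the lowest wild-type clone. miR-25-3p was 3.75-fold lower in E518K (log2 change −1.91 ± 0.40 SE, n = 3 each, adjusted p = 6.5e-06 by edgeR's quasi-likelihood test). Without wild-type clone 16 it was at −1.25 (adjusted p = 0.024).

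The other arm, mmu-miR-25-5p, was at 140 CPM in wild-type clone 10, 233 in clone 12 and 191 in clone 16. E518K clones 8, 13 and 15 had 68.0, 39.1 and 54.4 CPM. This minor arm fell alongside the guide, again with no overlap (log2 change −1.80 ± 0.46, adjusted p = 0.00031 by edgeR). It no longer passed once wild-type clone 16 was left out (−1.08, adjusted p = 0.096), a clone whose removal also moved the median of all tested miRNAs from −0.14 to 0.73.

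mmu-miR-93-5p, the guide of the middle hairpin, had 3075, 4990 and 5436 CPM in wild-type clones 10, 12 and 16 and 5084, 6174 and 4081 CPM in E518K clones 8, 13 and 15. The clones of the groups were interleaved, and the log2 change was 0.18 ± 0.37 (adjusted p = 0.67 by edgeR). mmu-miR-106b-5p, the arm of the first hairpin with the AAAGUGC seed, was less abundant than its 3p arm in every library. It had 943, 1019 and 1380 CPM in wild type and 1161, 1640 and 1081 CPM in E518K in the same clone order. Its groups overlapped too, with a log2 change of 0.22 ± 0.38 (adjusted p = 0.62).

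The 3p arms of these hairpins leaned higher in E518K without passing the test. mmu-miR-106b-3p, which outnumbered its 5p arm, was at 3884, 2702 and 3393 CPM in wild-type clones 10, 12 and 16 and at 5829, 4516 and 5362 CPM in E518K clones 8, 13 and 15. mmu-miR-93-3p, a rare arm, was at 22.6, 39.1 and 33.0 CPM in wild type and at 66.1, 69.0 and 40.3 CPM in E518K. For both, every E518K clone was above every wild-type clone, with log2 changes of 0.65 ± 0.37 (adjusted p = 0.11 by edgeR) and 0.89 ± 0.48 (adjusted p = 0.097). In all, 4 of 6 arms did not overlap between groups, where 64.5% of the tested miRNAs did not. Without wild-type clone 16 both 3p arms passed (1.40 and 1.57, adjusted p = 0.014 and 0.029), as did miR-93-3p without E518K clone 15 (1.17, adjusted p = 0.044). Leaving out wild-type clone 16 also moved the median of all tested miRNAs from −0.14 to 0.73, with 250 of them higher and 164 lower. The 3p arms thus rose together with that median.

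**Figure D2:**
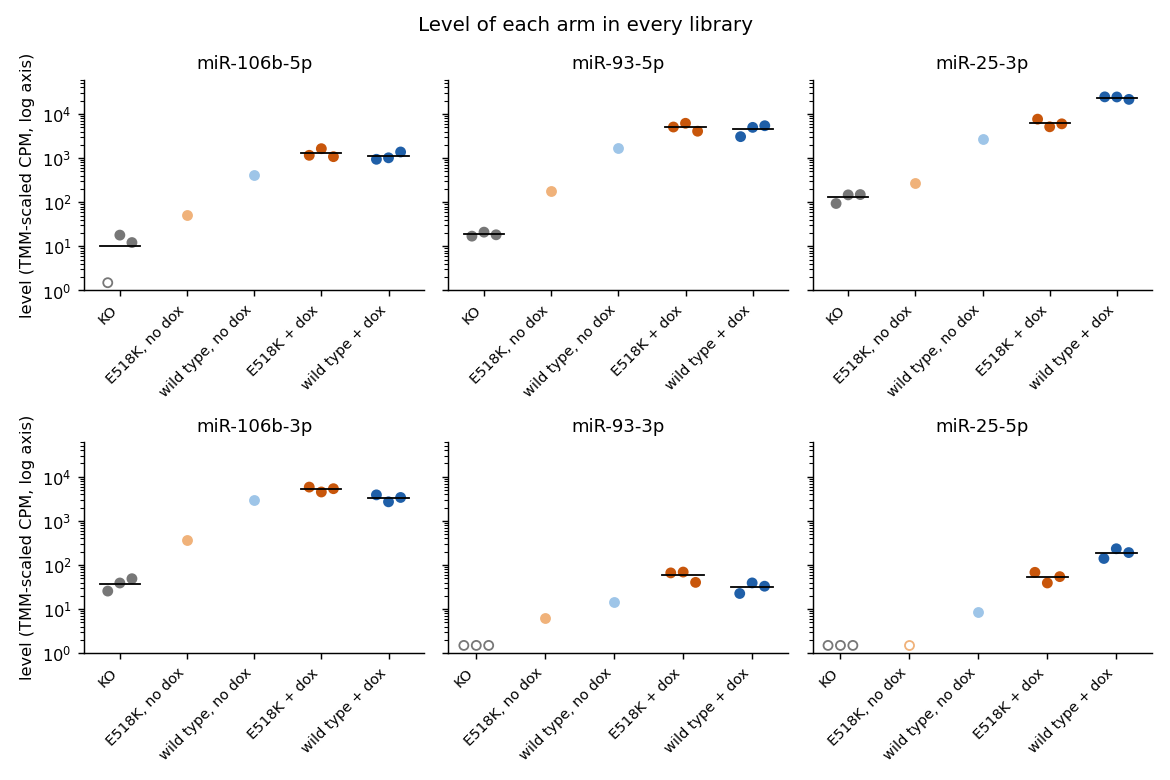
Level of each arm in every library on a log axis of TMM-scaled CPM, with 1 point per library, a line at the mean of groups of 3 and open circles drawn at the bottom for 0 counts. miR-25-3p and miR-25-5p were lower in every induced E518K clone than in any induced wild-type clone, while miR-93-5p and miR-106b-5p overlapped.

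The scaling changed the direction for miR-106b and miR-93, and not for miR-25. miR-25-3p was at −1.51 with total counts, −2.11 with size factors from DESeq2 and −1.97 with the pRPM totals, and its call held. The pRPM values sum to the same total in every library of a group and to different totals between groups, and the origin of these totals is not known, so changes between groups on that scale carry them. With total counts miR-106b-3p (1.014, adjusted p = 0.023) and miR-93-3p (1.33, adjusted p = 0.042) passed as higher. With the summed counts of miRNAs that bypass DGCR8 as library size, it was at −4.68, and the 4 arms of miR-106b and miR-93 turned to between −2.61 and −1.90 and were called lower. Under that scaling the median of all tested miRNAs was −2.90, so these 4 arms fell less than the median miRNA and miR-25-3p fell more.

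Ratios within a library need no scaling. Wild-type clones 10, 12 and 16 had 7.98, 4.89 and 3.96 counts of miR-25-3p for each count of miR-93-5p. E518K clones 8, 13 and 15 had 1.51, 0.833 and 1.47. Every E518K clone was below every wild-type clone, with a difference in mean log2 ratio of −2.13 (two-sided exact permutation test p = 0.10, the smallest that 3 against 3 can give, and 0.24 after adjustment over 12 ratio tests). The ratio of miR-25-3p to miR-106b-5p was 15.6 to 26.03 in the wild-type clones and 3.14 to 6.60 in the E518K clones, again with no overlap (−2.13, exact p = 0.10, adjusted 0.24). For miR-93-5p to miR-106b-5p the wild-type clones had 3.26 to 4.90 and the E518K clones 3.76 to 4.38, a difference of −0.01 (exact p = 1).

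Because that test cannot pass at this size, the ratio was also fitted in edgeR over all other tested miRNAs with the counts of 1 arm as library size, an analysis chosen after seeing the data. Relative to miR-93-5p, miR-25-3p was at −2.14 ± 0.50 (log2 change, adjusted p = 0.0019) and miR-25-5p at −1.95 ± 0.44 (adjusted p = 0.0016), where 56.5% of 729 miRNAs were called. Relative to miR-106b-5p, miR-25-3p was at −2.10 ± 0.50 (adjusted p = 0.00064), where 58.8% were called. Leaving out any 1 of the 6 libraries kept both miR-25-3p calls, with values from −2.34 to −1.80 and from −2.33 to −1.85. miR-93-5p showed −0.02 relative to miR-106b-5p (SE 0.43, adjusted p = 0.98).

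The 2 arms of a hairpin were compared in the same way. miR-25-3p outnumbered miR-25-5p by 105 to 175 times in wild type and by 110 to 132 times in E518K, which overlapped (difference of the 5p to 3p log2 ratio 0.13, exact p = 0.80). miR-106b-3p outnumbered miR-106b-5p by 2.46 to 4.12 times in wild type and by 2.75 to 5.02 times in E518K, also overlapping (−0.45, exact p = 0.20). For miR-93 the 5p arm was ahead of the 3p arm by 127 to 165 times in wild type and by 76.9 to 101 times in E518K. These did not overlap (−0.68, exact p = 0.10, adjusted 0.24), and relative to miR-93-5p in edgeR the 3p arm did not pass (0.69 ± 0.44, adjusted p = 0.19).

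Over the whole cluster, the 6 arms held 2.22% ± 0.600 of the miRNA counts in induced wild type and 1.62% ± 0.429 in induced E518K (SD, n = 3 each), and the clones overlapped. On the TMM scale they did not: the cluster was at 31948 to 33380 CPM in wild type and at 16620 to 19868 CPM in E518K, with no test of this sum. Of the cluster's own counts, miR-25 held 72.5% ± 4.04 in wild type and 34.9% ± 4.89 in E518K. miR-106b held 13.6% ± 2.15 and 36.3% ± 2.12, and miR-93 13.9% ± 3.94 and 28.7% ± 5.89. The 3 hairpins were thus near equal in induced E518K, where miR-25 had dominated in induced wild type. It did not dominate in the untreated wild-type library, where miR-25 held 35.3%, miR-93 21.5% and miR-106b 43.2%.

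**Figure D3:**
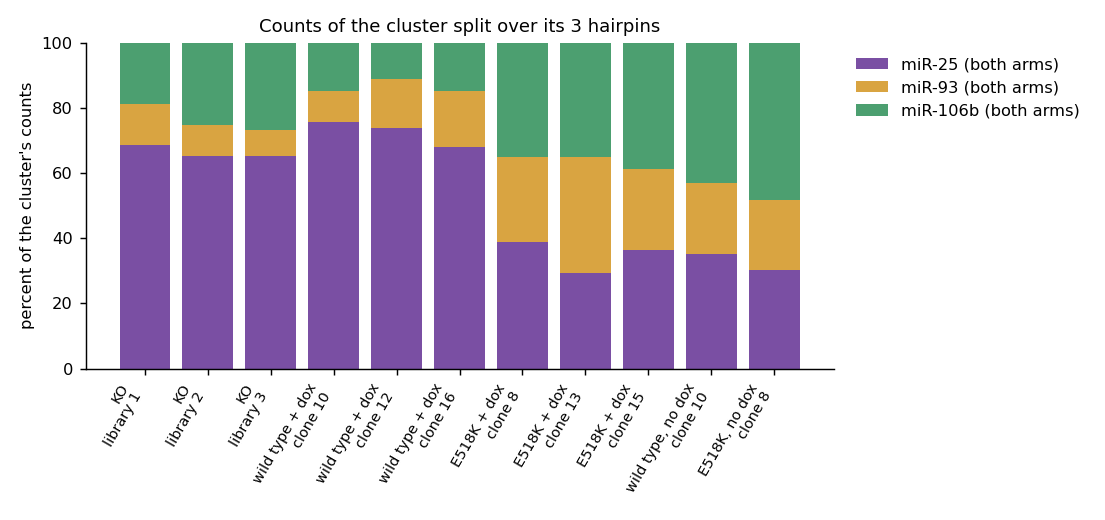
Stacked bars of the percent of the cluster's counts that came from each hairpin (both arms), with 1 bar per library. miR-25 held 67.9% to 75.7% in induced wild type and 29.5% to 38.9% in induced E518K, with 35.3% and 30.2% in the untreated libraries.

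Without DGCR8 the cluster was nearly gone. Compared with induced wild type, all 6 arms were lower and 0 higher, where 58.4% of the tested miRNAs were lower and 30.0% higher, and no arm overlapped, as for 84.9% of miRNAs. The median log2 change was −7.70 over the arms and −3.54 over all tested miRNAs. miR-25-3p had 44, 49 and 49 counts in KO libraries 1, 2 and 3, or 130 ± 31.5 CPM against 23483 ± 1706 in wild type (SD, n = 3 each). Its log2 change was −7.50 ± 0.52 (adjusted p = 2.4e-41 by edgeR). It was at −6.86 without KO library 2 and −6.90 without wild-type clone 12.

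miR-106b-3p had 12, 13 and 16 counts in KO and miR-93-5p had 8, 7 and 6. They changed by −6.48 ± 0.49 and −7.91 ± 0.54 (adjusted p = 1.4e-34 and 3.0e-42 by edgeR). Leaving out 1 library moved miR-93-5p to between −8.51 (without KO library 1) and −7.24 (without KO library 3), with −7.26 without KO library 2 and −7.32 without wild-type clone 12. miR-106b-3p was at −5.78 without KO library 2 and −5.86 without wild-type clone 10. With total counts the changes were smaller, at −5.90 for miR-25-3p, −4.91 for miR-106b-3p, −6.35 for miR-93-5p and −5.38 for miR-106b-5p, with all calls kept. In the same order they were larger with the pRPM totals, at −9.37, −8.37, −9.80 and −8.82, and with the list of miRNAs that bypass DGCR8, at −12.7, −11.7, −13.1 and −12.1.

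miR-106b-5p had 0, 6 and 4 counts in KO, so that its log2 change of −6.91 ± 0.56 (adjusted p = 5.3e-31 by edgeR) rests on few counts. The rare arms miR-93-3p and miR-25-5p had 0 counts in every KO library. With KO set to the floor of 6 counts in each library, miR-93-3p was at least 1.93-fold and miR-25-5p at least 11.5-fold lower in KO than in wild type. Of the few KO counts 66.5% ± 1.97 came from miR-25 (SD, n = 3), from 65.3% to 68.8%. KO library 1 lay within the wild-type range of 67.9% to 75.7%, and KO libraries 2 and 3 lay below it.

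Induced E518K cells had far more of the cluster than KO cells. All 6 arms were higher and 0 lower, where 41.9% of tested miRNAs were higher and 26.2% lower, and none overlapped, as for 67.5% of miRNAs. The KO libraries also serve in the comparison with wild type. The log2 change was 8.09 ± 0.54 for miR-93-5p (adjusted p = 3.3e-43 by edgeR), 5.60 ± 0.48 for miR-25-3p (adjusted p = 1.8e-28) and 7.13 for each arm of miR-106b (adjusted p = 5.3e-39 for 3p and 2.8e-32 for 5p). Their sizes moved with single libraries while every call was kept. Without E518K clone 15 the values were 9.13 (miR-93-5p), 6.45 (miR-25-3p), 7.95 (miR-106b-3p) and 8.13 (miR-106b-5p). miR-93-5p was at 8.77, 7.32 and 7.29 without KO library 1, 2 or 3 and at 7.46 and 7.31 without E518K clone 8 or 13. miR-25-3p was at 4.89, 4.97 and 4.88 without KO library 2, KO library 3 or E518K clone 8. The miR-106b arms were at 6.38 and 6.49 (3p, without KO library 2 or E518K clone 8) and at 6.37 (5p, without E518K clone 13). With total counts the changes were 6.94 for miR-93-5p, 4.39 for miR-25-3p, 5.92 for miR-106b-3p and 5.996 for miR-106b-5p. In the same order they were 9.93, 7.39, 8.92 and 8.97 with the pRPM totals and 10.5, 8.07, 9.59 and 9.55 with the list. Against the floor, miR-93-3p was at least 3.57-fold and miR-25-5p at least 3.29-fold higher.

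By group means the order was KO, untreated E518K, untreated wild type and then the induced groups for the 4 arms that had counts in all of them. For miR-106b-3p untreated wild type lay within the range of the induced wild-type clones. The KO libraries had doxycycline and the untreated libraries had none, so comparisons between them also differ in treatment. Untreated wild-type clone 10 had 2742 CPM of miR-25-3p, 1666 of miR-93-5p, 2962 of miR-106b-3p, 407 of miR-106b-5p, 14.6 of miR-93-3p and 8.75 of miR-25-5p. All 6 arms were higher than in KO by edgeR and 0 lower, where 43.3% of miRNAs were higher and 13.4% lower, with the 1 library assumed to vary like the other groups. The change was 4.40 ± 0.51 for miR-25-3p (adjusted p = 3.2e-16) and 6.47 ± 0.56 for miR-93-5p (adjusted p = 2.0e-27). Without KO library 2 or 3 these were 3.23 and 3.31 for miR-25-3p and 5.24 and 5.22 for miR-93-5p. miR-106b-3p, at 6.31, was at 5.07 and 5.32 without those libraries, and miR-106b-5p, at 5.46, at 4.52 without KO library 3. With total counts miR-25-3p was at 2.32 and miR-93-5p at 4.38, and with the list at 6.45 and 8.46. The calls of the rare arms miR-93-3p and miR-25-5p, with 10 and 6 counts, were lost with total counts (adjusted p = 0.067 and 0.15) and without KO library 2 (0.056 and 0.11) or 3 (0.051 and 0.098), and both levels lay below the mean KO floor of 16.4 CPM.

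Untreated E518K clone 8 had 267 CPM of miR-25-3p, 184 of miR-93-5p, 375 of miR-106b-3p, 50.8 of miR-106b-5p, 6.35 of miR-93-3p and 0 counts of miR-25-5p. Of the 6 arms 3 were higher than in KO and 0 lower, where 15.2% of miRNAs were higher and 0.137% lower. Here too there was 1 library without doxycycline against 3 of 1 clone with it, so the p-values rest on the spread of the other groups. These were miR-106b-3p (3.33 ± 0.54, adjusted p = 3.0e-08 by edgeR), miR-93-5p (3.30 ± 0.60, adjusted p = 8.1e-07) and miR-106b-5p (2.46 ± 0.78, adjusted p = 0.014). The miR-106b-5p call rests on 16 counts. It was lost with total counts (log2 change 1.68), DESeq2 size factors (1.87), the DESeq2 test (1.87) and the list (1.61). Leaving out KO library 2 (2.49) or 3 (2.00) lost it too. Without KO library 2, miR-106b-3p was at 2.58 and miR-93-5p at 2.55, and the latter was at 3.92 and 2.52 without KO library 1 or 3. With total counts they were at 2.55 and 2.51. miR-25-3p showed 1.04 ± 0.56 (adjusted p = 0.25), and passed without KO library 1 (1.54, adjusted p = 0.019).

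Within the same clone, doxycycline raised the levels of the hairpins unevenly in wild type and more evenly in E518K, with 1 library on each side and no test. In wild-type clone 10 miR-25-3p went from 2742 to 24535 CPM, 8.95-fold. In the same libraries miR-93-5p went up 1.85-fold, miR-106b-5p 2.32-fold and miR-106b-3p 1.31-fold. In E518K clone 8 miR-25-3p went from 267 to 7661 CPM, 28.7-fold, beside 27.6-fold for miR-93-5p, 22.8-fold for miR-106b-5p and 15.6-fold for miR-106b-3p. These folds move with the scaling, while the ratios between arms do not.

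The count ratio of miR-25-3p to miR-93-5p was 1.65 in untreated and 7.98 in induced wild-type clone 10, 4.85 times higher (95% interval 4.33 to 5.42, counting error only). In E518K clone 8 it was 1.45 untreated and 1.51 induced, 1.04 times as high (0.624 to 1.71). Relative to miR-106b-3p the same ratio rose 6.82 times (6.203 to 7.52) in the wild-type clone and 1.85 times (1.22 to 2.82) in the E518K clone. Untreated wild type, at 1.65, was thus below the range of induced wild type, 3.96 to 7.98, and just above that of induced E518K, 0.833 to 1.51. The difference between the clones was not tested, as each condition had 1 library.

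**Figure D4:**
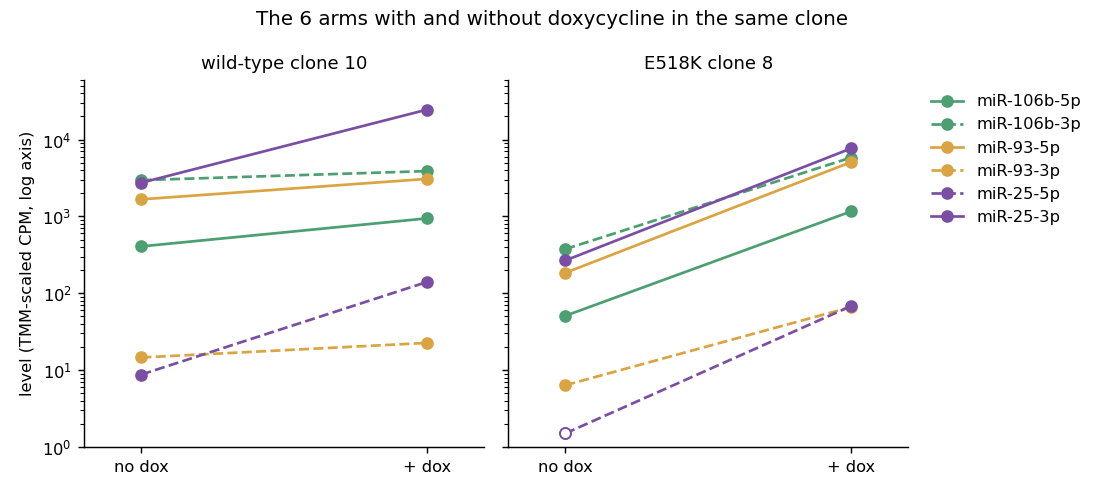
Level of the 6 arms without and with doxycycline in wild-type clone 10 and in E518K clone 8, on a log axis of TMM-scaled CPM, with 1 library per point and an open circle at the bottom for 0 counts. In the wild-type clone miR-25-3p and miR-25-5p rose more steeply than the other arms, and in the E518K clone the lines ran closer to parallel.

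The miRNAs with the same seeds bear on how much of each seed the cells hold. In the AAAGUGC family, miR-106b-5p and miR-93-5p together made up 23.3% ± 1.63 of the family's counts in induced wild type and 22.6% ± 2.08 in induced E518K (SD, n = 3 each), with overlap. Of the other 4 members, miR-17-5p rose in E518K (log2 change 1.21 ± 0.38, adjusted p = 0.0028 by edgeR) and miR-106a-5p fell (−1.49 ± 0.38, adjusted p = 0.00031). miR-20a-5p, the most abundant, showed 0.25 ± 0.38 and miR-20b-5p −0.33 ± 0.37, and neither passed.

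In the AUUGCAC family miR-25-3p lost its place. It held 54.5% ± 4.45 of the family's counts in induced wild type, from 50.3% to 59.2%, and 18.6% ± 0.573 in induced E518K, from 18.3% to 19.3%. Untreated wild type had 15.9% and untreated E518K 19.3%. The family as a whole held 2.94% ± 0.823 of the miRNA counts in wild type and 2.96% ± 0.582 in E518K, which overlapped. On the TMM scale it was at 41453 to 45244 CPM in wild type and at 28061 to 39681 CPM in E518K, which did not overlap, with no test of this sum.

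The largest member in E518K was miR-92a-3p, from 2 hairpins of the related clusters, at 25348 CPM against 14526 in wild type. Its log2 change of 0.80 ± 0.39 did not pass (adjusted p = 0.062 by edgeR), with every E518K clone above every wild-type clone. miR-32-5p (−5.26 ± 0.48, adjusted p = 5.5e-24), miR-92b-3p (−1.87 ± 0.48, adjusted p = 0.00027) and miR-363-3p (−1.20 ± 0.38, adjusted p = 0.0031) fell, and miR-367-3p showed 0.89 ± 0.53 (adjusted p = 0.13). Of the 6 miRNAs of this seed, 4 fell and 0 rose by the test, where 35.3% of all tested miRNAs were lower and 28.2% higher.

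**Figure D5:**
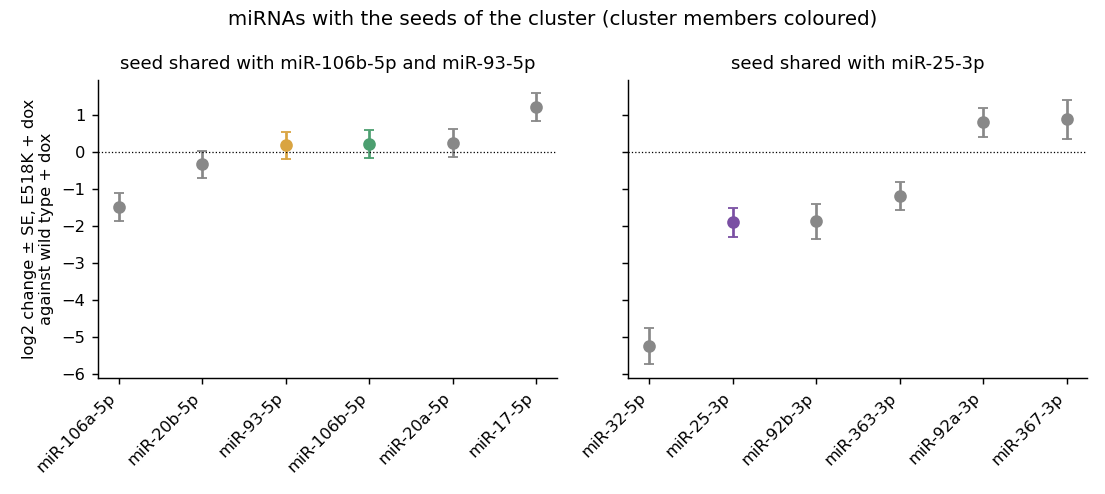
Log2 change in induced E518K against induced wild type for the miRNAs that share a seed with the cluster, with error bars of 1 SE from edgeR and cluster members in colour. miR-25-3p was at −1.91 and miR-92a-3p, with the same seed, at 0.80.

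The related clusters were read beside these shares. In E518K, of 12 arms of miR-17-92, 4 rose and 2 fell, with a median log2 change of 0.75, and of 12 arms of miR-106a-363, 1 rose and 4 fell, with a median of −0.48. These counts are beside 28.2% higher, 35.3% lower and a median of −0.14 over all tested miRNAs. Both lists hold miR-19b-3p and miR-92a-3p, which come from a hairpin in each. In KO 6 of 6, 11 of 12 and 12 of 12 arms of the 3 clusters fell, where 58.4% of all tested miRNAs did. The 5 miRNAs outside the cluster whose log2 levels followed the mean of miR-106b-5p, miR-93-5p and miR-25-3p most closely over the 11 libraries were miR-363-3p (Pearson's r 0.991), miR-106a-5p (0.989), miR-708-5p (0.989), miR-20b-5p (0.987) and miR-363-5p (0.987) of 465 compared. These coefficients describe libraries that share their groups and depth. Among the members themselves, r was 0.988 between the arms of miR-25 and 0.878 between miR-106b-3p and miR-25-5p.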

How the data were processed

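The authors deposited read counts per mature miRNA for 11 libraries, and a second table for them in RPM, named pRPM. The submitters' processing notes list STAR, bedtools and the build GRCm38.p6; the sources used here do not give how reads were trimmed, assigned to strands and counted. Divided by 1 factor per library, the pRPM values were whole reads (100% of values within 0.01 reads) and equalled the counts. A count test on these recovered reads is the same test. Using the pRPM totals to scale libraries is a different setting and gave other changes. A file labelled as piRNA counts was identical to the pRPM table and was not used. Of counts from 1 to 40, 90.3% were even. Per the labels' protocols libraries came from the NEBNext small RNA kit.

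Groups and clones were taken from sample titles. Counts were tested with edgeR 4.0.16 in R 4.3.3 (robust quasi-likelihood fit, 5 groups, 11 libraries, TMM). For this fit and its filter the counts were used as deposited and not divided by 2. What this does to p-values that rest on few counts was not tested. Rows were kept by filterByExpr at its settings of 10 for the count and 15 for the total. Adjusted p-values are Benjamini-Hochberg values over the 730 miRNAs tested, with a threshold of 0.05. Standard errors were taken from the fold change and its F statistic. Ratios used a pseudocount of 1 and two-sided exact permutation tests. Intervals of ratios are conditional exact ones on counts divided by 2, and cover counting error only. DESeq2 1.42.0, other scalings, no filter, 2-group fits and leaving out libraries were alternatives. Folding used RNAfold 2.7.2; sequences are from RefSeq (GRCm38.p6), and exons from GENCODE. The script was run on simulated counts in which only induced E518K differed, so that run did not test the comparisons with KO. The text names all 6 arms, the 2 seed families and the 5 miRNAs most alike over libraries (mean of at least 10 CPM, log2 of CPM plus 1). The members and lists were chosen with earlier results of these data known. Ligation preferences of the kit, which affect levels compared between miRNAs, were not measured.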

Additional observations from a re-analysis of the deposited data

How the results depend on the processing

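The fall of miR-25-3p in E518K kept its direction and its call under every scaling, tool, filter and left-out library tried, from −4.68 to −1.25. The arms called lower in E518K were 2 in the main analysis and 6 with the DGCR8-independent list as library size (1 to 2 when single libraries were left out); of all 730 miRNAs 35.3% were called lower and 28.2% higher, and with the list 498 were lower and 12 higher. Arms called higher were 0, but 2 with total counts (all miRNAs 227 higher, 216 lower) and 2 in a fit of only those groups (all miRNAs 153 higher, 240 lower). With single libraries left out they were 0 to 2, where 148 to 250 of all tested miRNAs were higher and 164 to 233 lower. With the list, miR-106b-5p, miR-106b-3p, miR-93-5p and miR-93-3p turned to −2.57, −2.11, −2.61 and −1.90. Leaving out libraries gave −0.076 to 1.09 for miR-106b-5p, which turned to −0.076, −0.02 and −0.01 without wild-type clone 10, wild-type clone 12 or E518K clone 13, and −0.19 to 1.018 for miR-93-5p, which turned to −0.19 and −0.01 without wild-type clone 10 or E518K clone 13. Ratios from few KO counts changed sign: the miR-106b arm ratio in KO from −0.57 to 0.45 with a pseudocount of 6 (−1.15 to 0.20 with libraries left out), and miR-25-3p to miR-93-5p in KO from 0.18 to −0.38 (−0.042 to 0.46). In E518K the miR-25 arm ratio ranged from −0.10 to 0.27 with libraries left out and miR-93-5p to miR-106b-5p from −0.15 to 0.14. Over the TMM-scaled total the cluster held 0.0197% in KO, 3.26% in wild type and 1.80% in E518K. Without miR-92a-3p, miR-25-3p held 97.2% of its seed family in KO, 82.0% in wild type and 76.6% in E518K. Induction of the whole cluster was 4.18-fold in wild-type clone 10 and 22.5-fold in E518K clone 8, and 5.20 and 16.1 with total counts, 8.16 and 28.5 with DESeq2 size factors, 7.12 and 79.4 with pRPM, and 36.9 and 219 with the list; the cause was not tested. No paired analysis was possible because the groups compared by a test share no clone number. Depth limits the rare arms: 0 counts leave room for 12.8 to 18.3 CPM in the KO libraries and 19.1 CPM in untreated E518K.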
